A study of Homo sapiens with 33 samples.

Results

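The mitotic kinesins described here were KIF11, KIF14, KIF15, KIF18A, KIF18B, KIF20A, KIF20B, KIF23, KIF2C and KIF4A. They were found as the probe sets to which the platform annotation gave 1 of these symbols, a step that used no measured value. The genes themselves were chosen with earlier results of these data known, so they are not a set picked blind to the values. The rule found 11 of the 22215 probe sets, which stand for 10 of 11963 named genes, and KIF2C was the gene with 2 probe sets (209408_at and 211519_s_at). RNA of 33 samples from human anaplastic large cell lymphoma (ALCL) lines was measured on Affymetrix HG-U133A arrays, in 11 groups of 3 arrays. ALCL is a T-cell lymphoma, and in its ALK-positive form a fusion keeps the kinase ALK active. One line was TS, which was subcloned from Sup-M2, and the other was Su-DHL1. In the hairpin experiment every group, controls included, carried pLV-DsRed-tTRKRAB, which holds the hairpin silent without doxycycline, and a pLVTH-GFP-shRNA vector. These cells were sorted populations positive for both fluorescent proteins, with cells that showed GFP without inducer removed. TS cells with the ALK-A5 hairpin received doxycycline at 1 microg/ml for 84 or 72 h or were left uninduced, Su-DHL1 cells with ALK-A5 were induced for 72 h or left uninduced, and TS cells with the mutated hairpin ALK-A5M were induced for 84 h. The ALK-A5M group had no uninduced partner among the arrays, and the uninduced ALK-A5 cells lacked doxycycline as well as induction of the hairpin. In the compound experiment TS cells were exposed for 6 h to 300 nM of A2 or A3, described as ALK inhibitors derived from pyrrolocarbazole, to A1, or to no compound (U). The design text calls A1 a mock compound while its sample description calls it an ALK inhibitor, and U is called untreated in one place and control diluent in the other. The labels do not say whether the 3 samples of a group came from separate cultures, and the p-values cover no more than the spread among these arrays, part or all of which may be technical.

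Kinesins are motor proteins that use ATP to walk along microtubules or to take their ends apart. Those studied here act in mitosis: they push the spindle poles apart, trim microtubules, align chromosomes and build the midzone and midbody through which daughter cells separate. Their messages are kept low early in the cell cycle and accumulate towards mitosis, a programme known to run through the MuvB complex, B-MYB, FOXM1 and NF-Y. Several, KIF11 first among them, have been studied as drug targets in dividing tumour cells.

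The hairpin's target was checked first. ALK (208212_s_at, the brighter of 2 probe sets) fell in all 3 hairpin settings, with log2 fold changes of -2.998 ± 0.11 (SE) in TS at 84 h, -2.44 ± 0.11 in TS at 72 h and -2.20 ± 0.11 in Su-DHL1. Under ALK-A5M it was lower than in uninduced ALK-A5 cells without overlap, by -0.27 ± 0.11, but not called (limma adjusted p = 0.149). With A3 over A1 it was called lower (-0.41 ± 0.13, 0.0248), and with A2 over A1 it was not (-0.32 ± 0.13, 0.0702). Of the markers of ALK-positive ALCL listed for the check, ALK, TNFRSF8 (CD30), IL2RA, GZMB, PRF1 and TIA1 reached the 40th percentile of their array on 33 of 33 arrays, CD4 on 25 and CD2 on 18, and LCK on 0. Among markers of other cells, CD14, EPCAM and KRT19 reached it on 0 arrays, MS4A1, MPO, CD79A and PAX5 on 7 to 11, PECAM1 on 31, and CSF1R and COL1A1 on 33. The 2% trimmed mean of every array lay between 200.063 and 200.078, so a change in total RNA per cell cannot be seen. The 3′ to 5′ signal ratio of the ACTB control probe sets, a sign of RNA and labelling quality, moved with several groups. It was 1.27 ± 0.02 (SD, n = 3) in induced and 1.54 ± 0.05 in uninduced TS cells at 84 h, 1.32 ± 0.05 and 1.59 ± 0.11 at 72 h, and 1.36 ± 0.08 and 1.39 ± 0.03 in Su-DHL1. The ALK-A5M cells had 1.52 ± 0.08, and U, A1, A2 and A3 had 1.18 ± 0.12, 1.33 ± 0.07, 1.05 ± 0.03 and 1.06 ± 0.15. The same ratio of the GAPDH controls differed less between hairpin groups. It was 0.86 ± 0.03 in induced and 0.87 ± 0.06 in uninduced TS cells at 84 h, and 0.83 ± 0.03 and 0.87 ± 0.02 at 72 h. In Su-DHL1 it was 0.86 ± 0.03 and 0.88 ± 0.02, and in ALK-A5M cells 0.89 ± 0.07. U, A1, A2 and A3 had 1.00 ± 0.04, 0.98 ± 0.10, 0.89 ± 0.03 and 0.94 ± 0.14. The part of the ACTB ratio in the results below was not tested other than by adding it to the fit.

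For each of the 11 kinesin probe sets the lowest group mean was that of TS cells induced for 84 h and the highest that of TS cells under A2. The distance between these group means ran from 3.44-fold for KIF18A to 14.2-fold for KIF11. The lowest and the highest group belong to different experiments, so this distance takes in any difference between the experiments. The controls already differed for KIF11, with a mean of 261.9 in uninduced TS cells at 84 h and 409.6 in U. The median over the 10 genes of the signal left under the hairpin was 24.9% of the uninduced control in TS at 84 h, 48.7% in TS at 72 h and 68.5% in Su-DHL1. Under A2 the median was 166.7% of A1, and under A3 it was 124.3%. With the 11 group means of a probe set put in order, between 0 (KIF20B) and 6 (KIF20A) of the 10 pairs of neighbours had arrays that did not overlap. All probe sets but that of KIF23 reached the 40th percentile of their array on all 33 arrays. KIF23 did so on 29, on 0 of 3 in TS induced for 84 h and on 2 of 3 in TS induced for 72 h, so its lowest values lie among the dim probe sets.

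**Figure D1:**
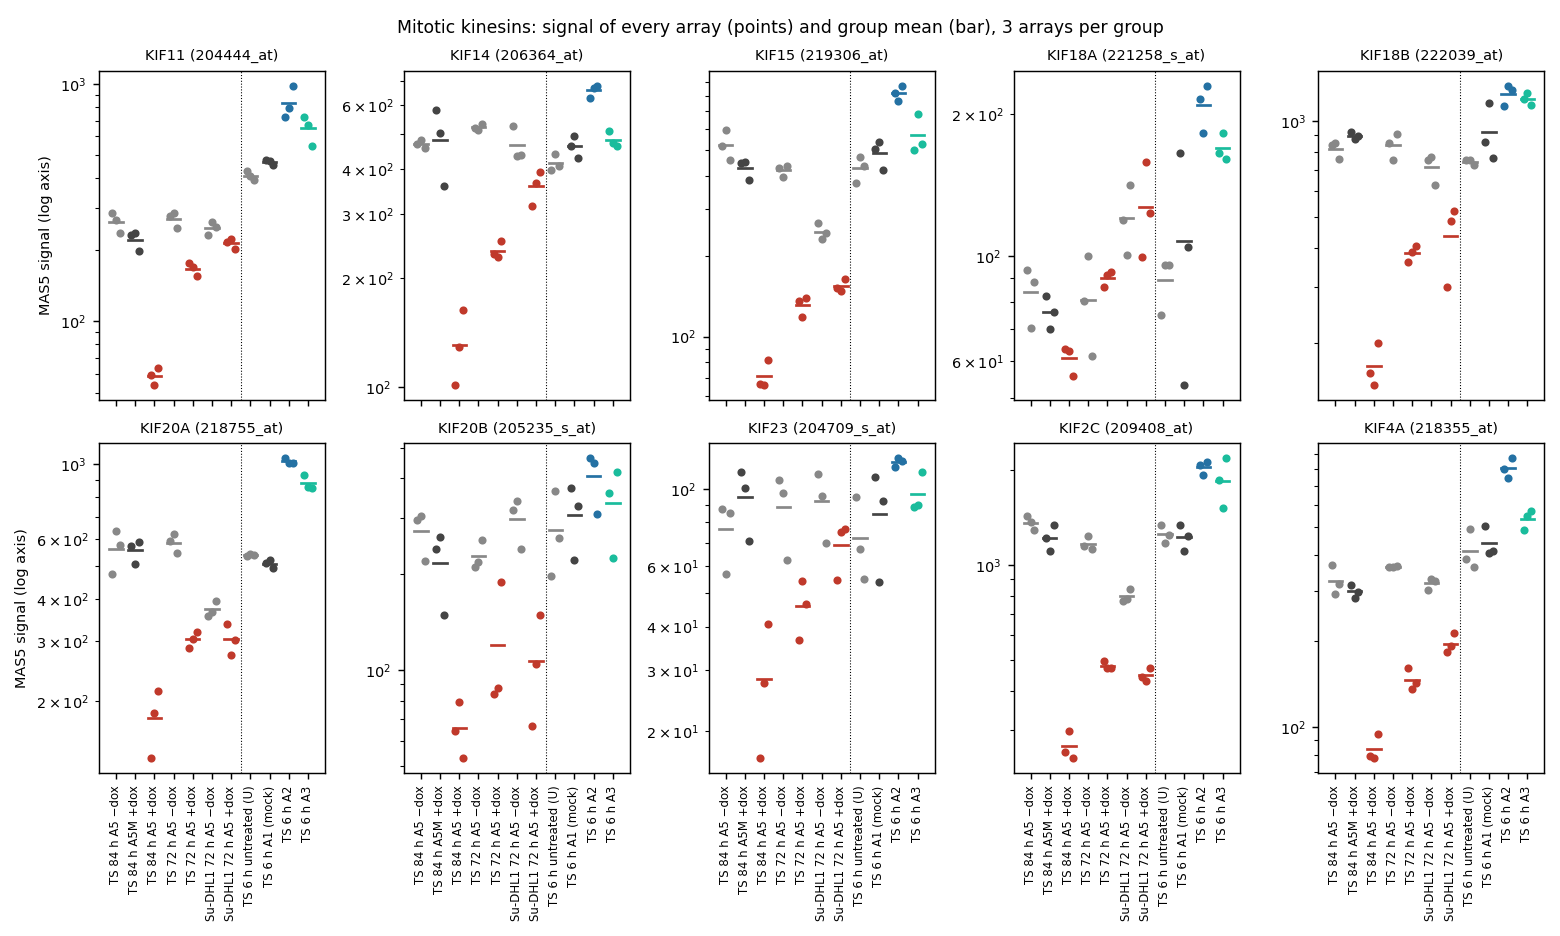
Signal of each array (points, MAS5 units, log axis) and group mean (bar) for the 10 kinesins in all 11 groups, 3 arrays per group, with the hairpin groups left of the dotted line and the compound groups right of it. For every gene shown, the group mean is lowest in TS cells induced for 84 h and highest in TS cells under A2, and KIF18A has the smallest distance between them.

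The promoters are shown because these messages moved together in most comparisons. The 120 bases before the annotated start, from RefSeq on GRCh38.p14, are printed 5′ to 3′ on the strand of the gene. Capitals mark matches on either strand to TTTGAA (the core of the cell cycle genes homology region, CHR, which MuvB binds), to CCAAT (the box that NF-Y binds) and to TTGGCGC (an E2F motif). Read on the other strand the first is TTCAAA, the second is ATTGG and the third is GCGCCAA. KIF15 fell most under the hairpin, KIF11 and KIF4A hold both boxes, KIF18A holds both boxes and was the gene whose fall passed in none of the hairpin comparisons, and KIF2C holds none. Their windows are chr3:44761674-44761793 (plus strand) for KIF15, chr10:92593010-92593129 (plus) for KIF11, chrX:70289984-70290103 (plus) for KIF4A, chr11:28108157-28108276 (minus) for KIF18A and chr1:44739717-44739836 (plus) for KIF2C.
KIF15: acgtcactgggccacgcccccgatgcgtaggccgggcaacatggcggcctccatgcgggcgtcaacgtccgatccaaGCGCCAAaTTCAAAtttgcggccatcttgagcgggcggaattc
KIF11: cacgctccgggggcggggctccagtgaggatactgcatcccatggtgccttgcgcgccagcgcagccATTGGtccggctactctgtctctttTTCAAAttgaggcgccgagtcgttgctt
KIF4A: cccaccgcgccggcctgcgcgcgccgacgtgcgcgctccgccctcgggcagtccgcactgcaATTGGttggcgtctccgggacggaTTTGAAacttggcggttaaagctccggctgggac
KIF18A: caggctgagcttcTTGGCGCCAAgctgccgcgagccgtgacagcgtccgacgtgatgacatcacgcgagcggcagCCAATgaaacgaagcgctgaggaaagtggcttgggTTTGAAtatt
KIF2C: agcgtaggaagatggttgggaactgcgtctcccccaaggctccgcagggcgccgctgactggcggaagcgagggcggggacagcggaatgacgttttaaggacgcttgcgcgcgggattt

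In the 250 bases before the start, TTTGAA was found in 5 of the 10 kinesin promoters (KIF11, KIF15, KIF18A, KIF23 and KIF4A), against 13.3% of the 35116 promoters of the same length. CCAAT was found in 8 of 10, all but KIF15 and KIF2C, against 11240 of the 35116 promoters. Both were found in 4 of 10, KIF11, KIF18A, KIF23 and KIF4A, against 4.7%. When the window was extended by 50 bases past the start, 8 of 10 held TTTGAA, with KIF14, KIF18B and KIF20B added, against 15.2%. TTGGCGC was found in KIF15 and KIF18A, against 2.6%; the KIF18A matches overlap, since one is the reverse of the other. TTCGAA, the other CHR spelling, and TTCCCGC, a second E2F motif, were found in 0 of 10, against 1.2% and 5.5%. A match is a description of letters in the window and not a measured binding site. KIF18A shares TTTGAA and CCAAT with KIF11, KIF23 and KIF4A, whose signal fell with the hairpin in TS. KIF2C, which also fell, holds neither motif in this window. Whether the motifs bear on the response to the hairpin was not tested.

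**Figure D2:**
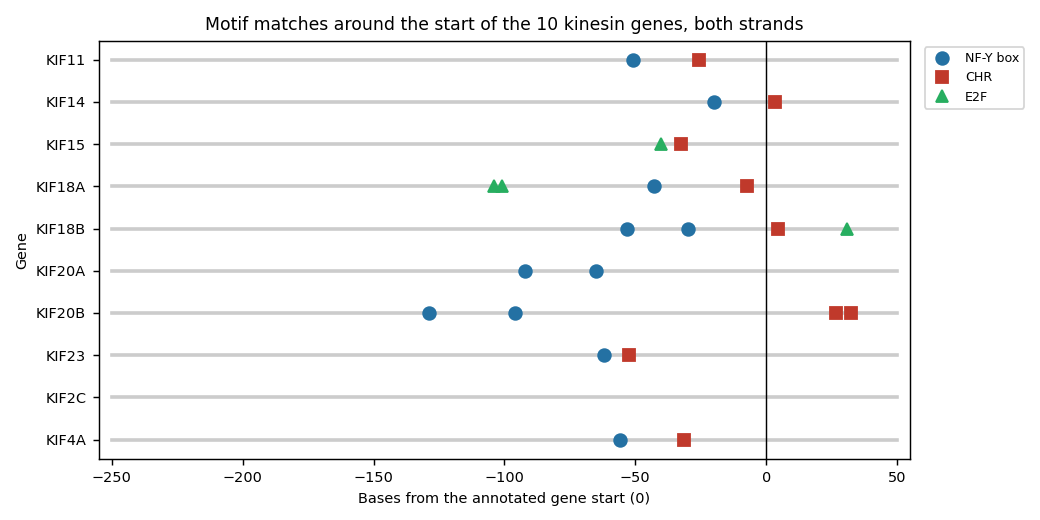
Position of each motif match, in bases from the annotated gene start (0), from 250 bases before to 50 after it, for the 10 kinesin genes, with CCAAT (circles), TTTGAA (squares) and the E2F motif TTGGCGC (triangles) on either strand. CCAAT is found in 8 of the 10 genes, TTTGAA in 5 before the start and in 3 more just after it, and KIF2C holds no match.

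The first question was what loss of ALK did to these motors in 3 settings. Under the ALK-A5 hairpin 9 of the 10 kinesins fell in TS at 84 h and 9 of 10 in TS at 72 h, and 5 of 10 fell in Su-DHL1 at 72 h. Changes are given as log2 fold changes of log2(signal + 11) with their standard error, from limma with Benjamini-Hochberg adjustment over all 9101 genes tested, and called at an adjusted p below 0.05. Of all genes, 18.8% were called lower in TS at 84 h, 15.2% in TS at 72 h and 10.7% in Su-DHL1. The median change of the kinesins was -1.86, -1.03 and -0.50 in these settings, beside 0.06, 0.07 and 0.08 for all genes tested. In TS at 84 h the arrays of induced and uninduced cells did not overlap for any of the 10 kinesins, a pattern that 20.9% of all genes showed in the lower direction. In bulk RNA, fewer dividing cells in a culture and less of a message per cell cannot be told apart. With the ACTB ratio added to the fit, 9, 7 and 6 of the 10 were called lower in these settings, beside 10.7%, 7.67% and 10.4% of all genes.

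KIF11 and KIF15 are the motors that hold spindle poles apart: KIF11 slides antiparallel microtubules, and KIF15 binds microtubule bundles and can keep a spindle bipolar when KIF11 is blocked. In TS at 84 h KIF15 had signals of 66.5, 65.7 and 81.7 in induced cells and 516.8, 595.5 and 459.6 in uninduced cells. At 72 h it had 135.4, 117.9 and 139.5 against 429.4, 395.2 and 435.3. In Su-DHL1 it had 152.1, 148 and 164.1 against 267.3, 231.6 and 243.8. Induced and uninduced arrays were apart in all 3 settings, and the uninduced Su-DHL1 arrays lay below every uninduced TS array. The log2 change was -2.70 ± 0.12 (adjusted p = 5.01e-15), -1.60 ± 0.12 (1.18e-10) and -0.64 ± 0.12 (2e-04), and the first was the largest fall of any of the 10 kinesins in any setting.

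KIF11 had 59.4, 53.7 and 63.3 in TS cells induced for 84 h and 284.6, 265.7 and 235.5 in the uninduced cells. At 72 h the signals were 175.4, 169.3 and 154.5 against 276, 286.2 and 247.3. In Su-DHL1 they were 216.4, 222.1 and 202.1 against 231, 262.4 and 248.4. The groups were apart in each setting, but by little in Su-DHL1. The fall was 1.97 ± 0.11 on the log2 scale at 84 h (adjusted p = 7.72e-13) and 0.66 ± 0.11 at 72 h (4.54e-05), while the change of -0.20 ± 0.11 in Su-DHL1 did not pass (0.215).

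KIF4A rides on chromosome arms and, with PRC1, sets the length of the midzone. Its signals in TS at 84 h were 79.4, 78.2 and 94.8 in induced and 368.3, 292.1 and 317.6 in uninduced cells. At 72 h they were 160.7, 136 and 143.3 against 363.8, 363.7 and 366.6, and in Su-DHL1 183.5, 192.2 and 213.3 against 302.1, 330.2 and 325.6. No arrays overlapped, and KIF4A passed in all 3 settings, with changes of -1.82 ± 0.11, -1.26 ± 0.11 and -0.67 ± 0.11 (highest adjusted p = 5.7e-05).

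KIF2C (MCAK), KIF18A and KIF18B shorten or cap microtubules: KIF2C takes their ends apart and corrects faulty attachments at centromeres, KIF18B works with it on astral microtubules, and KIF18A dampens the movements of chromosomes at the spindle equator. The main KIF2C probe set had 254.9, 299 and 244.9 in TS cells induced for 84 h and 1429, 1366 and 1286.9 in uninduced cells. At 72 h it had 495.8, 472.5 and 472.8 against 1150.3, 1233.9 and 1121.5, and in Su-DHL1 443, 428.3 and 472.4 against 770.5, 782.1 and 840.4. The arrays were apart throughout, and KIF2C passed in all 3 settings with -2.31 ± 0.09, -1.26 ± 0.09 and -0.82 ± 0.09 (highest adjusted p = 2.83e-07). Its other probe set gave -2.28 ± 0.12, -1.31 ± 0.12 and -0.57 ± 0.12 in a fit of all 15345 probe sets, all called.

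KIF18B had 161.9, 147.7 and 201.1 in induced and 841.8, 854.4 and 757.1 in uninduced TS cells at 84 h. Its signals at 72 h were 360.7, 386.1 and 405.4 against 851.1, 753.2 and 909.2. In Su-DHL1 they were 301.3, 484 and 521 against 756.1, 770.3 and 629.6, again without overlap, although the first induced array was far below the other two. KIF18B passed in each setting, with -2.20 ± 0.15 (adjusted p = 1.32e-11), -1.10 ± 0.15 (1.99e-06) and -0.74 ± 0.15 (0.000522).

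KIF18A behaved otherwise. In TS at 84 h it had 63.7, 63.1 and 55.7 in induced and 93.3, 70.6 and 88.4 in uninduced cells. These arrays were apart, yet the change of -0.40 ± 0.18 did not pass (adjusted p = 0.0762). At 72 h the signals were 86.1, 91.4 and 92.4 against 80.3, 100.2 and 61.5, and in Su-DHL1 99.6, 158.1 and 123.4 against 119.5, 100.5 and 141.3. Both pairs overlapped, with changes of 0.16 ± 0.18 (95% interval -0.20 to 0.52) and 0.06 ± 0.18 (-0.30 to 0.42). The call at 84 h rested on the setting: it passed after quantile normalization (-0.52, adjusted p = 0.0317) and without replicate 2 of the uninduced cells (-0.51, 0.0414).

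The other 4 kinesins act when the cell divides in 2. KIF20A carries the chromosomal passenger complex to the midzone, KIF23 with RACGAP1 forms centralspindlin, KIF14 brings citron kinase to the midbody, and KIF20B acts late in cytokinesis. KIF20A had 135.5, 183.8 and 213 in induced and 474.7, 635.4 and 576.4 in uninduced TS cells at 84 h, and 286.8, 305.1 and 318.4 against 592.7, 622.3 and 545.9 at 72 h. In Su-DHL1 it had 338, 272.9 and 302.1 against 356.1, 365.9 and 395.6, where the uninduced level was itself near the induced level of TS at 72 h. All pairs were apart. The falls of 1.62 ± 0.13 and 0.93 ± 0.13 on the log2 scale in TS passed (adjusted p = 4.56e-10 and 4.63e-06), and the change of -0.29 ± 0.13 in Su-DHL1 did not (0.121), although with the ACTB ratio in the fit it did (0.0456).

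KIF14 had 101.1, 128.5 and 162.7 against 468.2, 479.5 and 457.4 in TS at 84 h, and 232.3, 227.9 and 252.6 against 518.8, 511.5 and 530.6 at 72 h. In Su-DHL1 it had 315.8, 366.1 and 392.1 against 524.7, 435.1 and 435.7. Induced arrays were below uninduced ones in each setting. The log2 changes were -1.78 ± 0.15 (adjusted p = 7.38e-10), -1.10 ± 0.15 (2.55e-06) and, not called, -0.37 ± 0.15 (0.0748). In Su-DHL1 it passed when the compared arrays were fitted alone (0.0297).

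KIF20B scattered most within groups, with a median coefficient of variation of 25.1% over the 11 groups. In TS at 84 h it had 64.5, 79 and 52.9 in induced and 295.8, 304.4 and 219.8 in uninduced cells. At 72 h 1 induced array stood apart at 188.8 beside 83.8 and 87.6, against 210.6, 219.1 and 255.2. In Su-DHL1 it had 66.6, 104.3 and 149 against 317.6, 339.8 and 239.6. No pair overlapped, and KIF20B passed in all 3 with -1.89 ± 0.26 (adjusted p = 2.28e-06), -0.95 ± 0.26 (0.00588) and -1.44 ± 0.26 (0.000209). It had the largest fall of the 10 in Su-DHL1. In TS at 72 h the call was lost with the ACTB ratio in the fit (-0.33, 0.69).

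KIF23 had 16.7, 27.4 and 40.7 against 87.5, 56.7 and 85.4 in TS at 84 h and 36.6, 54.3 and 46.4 against 106.2, 97.2 and 62.4 at 72 h. In Su-DHL1 it had 54.5, 75 and 76.6 against 110.8, 95.5 and 70, the pair that overlapped. KIF23 fell by 1.18 ± 0.24 (adjusted p = 0.000382) and by 0.79 ± 0.24 (0.0136) on the log2 scale in TS, and its change of -0.36 ± 0.24 in Su-DHL1 did not pass (0.324). At 72 h the call ended without replicate 1 of the induced cells or without replicate 1 or 2 of the uninduced cells (adjusted p = 0.0565 to 0.0746), and with the ACTB ratio in the fit (0.175).

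**Figure D3:**
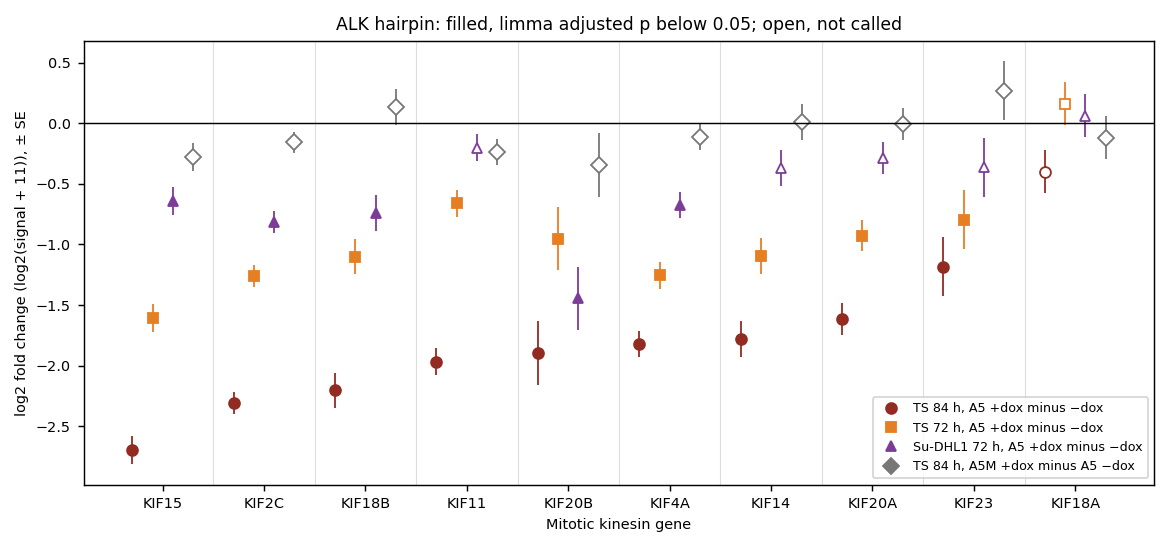
Log2 fold change (± SE) of each kinesin for the ALK-A5 hairpin in TS at 84 h, TS at 72 h and Su-DHL1 at 72 h, and for the mutated ALK-A5M hairpin in TS at 84 h; filled symbols passed limma's adjusted p of 0.05 and open ones did not. All kinesins lie lowest in TS at 84 h, the KIF18A symbols are open in all 3 settings (-0.40, 0.16 and 0.06), and all ALK-A5M symbols are open.

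The mutated hairpin served as a control for induction itself. Between ALK-A5M cells and uninduced ALK-A5 cells, both at 84 h, 0 of the 10 kinesins were called, where 6.99% of all genes were; 2 had an unadjusted p under 0.05 in limma, KIF15 (-0.28 ± 0.12) and KIF11 (-0.24 ± 0.11). KIF15 and KIF11 were lower and KIF18B higher without overlap between the arrays, beside 18.5% of all genes without overlap in either direction. KIF15 had 447.6, 453.3 and 387.4 and KIF11 had 229.5, 235.2 and 196.6 under ALK-A5M, far above their levels under ALK-A5. Set against ALK-A5M in place of uninduced cells, the ALK-A5 hairpin lowered the same number of kinesins, 9 of 10, where 20% of all genes were called lower. The changes ran from -2.42 ± 0.12 for KIF15 to -1.45 ± 0.24 for KIF23 among the 9, and KIF18A had -0.28 ± 0.18 (adjusted p = 0.216). This comparison and the one with uninduced cells share the 3 induced ALK-A5 arrays. With the ACTB ratio in the fit KIF20B was no longer called against ALK-A5M (-0.96, 0.0928).

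The longer induction went with the lower kinesin levels. The difference between the responses at 84 h and at 72 h was tested as an interaction, and 4 of 10 kinesins had a greater fall at 84 h, beside 0.978% of all genes. KIF11 differed most, by -1.30 ± 0.16 (adjusted p = 3.36e-05), followed by KIF18B with -1.10 ± 0.21 (0.00387), KIF15 with -1.09 ± 0.16 (0.000368) and KIF2C with -1.05 ± 0.13 (3.36e-05). All 10 estimates were below 0, with a median of -0.82 beside -0.02 for all genes. The uninduced arrays of KIF11 overlapped between the times, and its induced mean was 58.8 ± 4.8 (SD, n = 3) at 84 h and 166.4 ± 10.7 at 72 h. The changes of KIF20A (-0.69 ± 0.18, 0.0702), KIF4A (-0.57 ± 0.15, 0.0763) and KIF14 (-0.68 ± 0.21, 0.146) did not pass, but each of these 3 passed without replicate 3 of the TS cells induced for 84 h, which gave 7 calls. KIF20A also passed without replicate 1 of the uninduced cells at 84 h, with -0.83 and -0.80 over these 2 fits. After quantile normalization KIF20A and KIF4A passed, KIF20A also with the ACTB ratio in the fit and KIF4A also with the mean of probe sets (0.0299 to 0.0465 for both genes). Each time has its own arrays, controls included, so time and any other difference between these sets of arrays cannot be told apart.

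In Su-DHL1 the fall was smaller than in TS at 72 h for 8 of 10 kinesins by the estimate, and 2 passed the test of the difference, where 1.68% of all genes were called in that direction. KIF15 differed by 0.96 ± 0.16 (adjusted p = 0.000935) and KIF4A by 0.58 ± 0.15 (0.0361). KIF20B and KIF18A had estimates of the other sign, -0.49 ± 0.37 and -0.10 ± 0.25, and neither passed. The mean ALK signal was 637.2 in induced and 2965.5 in uninduced Su-DHL1 cells, and 330.2 and 1822.5 in TS cells at 72 h. The response of ALK differed by 0.24 ± 0.15, which did not pass (limma adjusted p = 0.563). The line and the ALK signal left under the hairpin cannot be told apart here. The KIF4A call ended without any 1 of 10 of the 12 arrays, the exceptions being replicate 1 of the induced cells of either line (adjusted p up to 0.112). Without replicate 1 of the induced Su-DHL1 cells KIF14 (0.81) and KIF18B (0.60) were added, and KIF14 was also added without replicate 1 of the uninduced ones (0.82). With the ACTB ratio in the fit neither KIF15 (0.77, adjusted p = 0.0822) nor KIF4A (0.52, 0.337) was called, and KIF20A was the 1 that passed (0.99), beside 0.615% of all genes called in that direction. KIF4A also missed the threshold with a replicate block (0.0741). With the compared arrays alone KIF14, KIF20A and KIF2C were added. KIF2C was also added with no filter and with the mean of probe sets, and KIF20A with a pseudocount of 32. In the limma fit of all 15345 probe sets the other KIF2C probe set was called (0.74 ± 0.18, adjusted p = 0.019). The main KIF2C probe set was not (0.45 ± 0.13, 0.064).

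The lines also differed before induction. Uninduced Su-DHL1 cells had less KIF15 (-0.74 ± 0.12, adjusted p = 4.3e-05), KIF20A (-0.64 ± 0.13, 0.000801) and KIF2C (-0.54 ± 0.09, 8.03e-05) than uninduced TS cells at 72 h, and more KIF18A (0.53 ± 0.18, 0.0331). These were 4 of 10 kinesins, beside 21.2% of all genes called in either direction. The 6 uninduced arrays compared here also enter the difference between the responses of the lines, so the results are not independent. Induced means in Su-DHL1 and in TS at 72 h were 154.7 and 130.9 for KIF15, 304.3 and 303.4 for KIF20A, and 447.9 and 480.4 for KIF2C. The KIF18A call ended without any 1 of 4 of its 6 arrays (adjusted p up to 0.193), replicates 1 and 3 of either line. It also ended with no filter, after quantile normalization, with the compared arrays alone and with the ACTB ratio in the fit (0.0512 to 0.291).

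With the kinase inhibitors the kinesins moved the other way. After 6 h of A2, 8 of the 10 were higher than under A1, where 19.1% of 8594 genes were called higher, and 8 had arrays above A1 without overlap, as 25.1% of all genes did. After A3, 5 of 10 were higher than under A1, where 18.5% of all genes were. The median change was 0.73 for A2 and 0.32 for A3, beside 0.02 and 0.04 for all genes. Against U, which shares the A2 and A3 arrays, 9 of 10 rose with A2 and 7 of 10 with A3, beside 19.7% and 18.8% of all genes. The ACTB ratio was 1.33 ± 0.07 under A1 beside 1.05 ± 0.03 and 1.06 ± 0.15 under A2 and A3, and with it in the fit 6 of 10 and 2 of 10 were called higher than A1, beside 7.77% and 8.35% of all genes. Against U 9 of 10 were then called with A2 and 5 of 10 with A3, beside 16% and 15.3% of all genes.

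KIF20A had the most uniform response. It had 1041.7, 1009 and 1011 under A2 and 929.7, 859.8 and 848.8 under A3, with 509.5, 522.4 and 492.8 under A1 and 534.9, 543.2 and 540.4 in U. Every inhibitor array lay above every control array. The rise over A1 was 0.99 ± 0.10 for A2 (adjusted p = 4.9e-07) and 0.78 ± 0.10 for A3 (8.43e-06).

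The pole-separating motors rose too. KIF11 had 725.7, 790.5 and 982.1 under A2 and 726.4, 670.8 and 548.6 under A3, against 476.3, 474 and 456.7 under A1 and 427.6, 408.2 and 392.9 in U. All inhibitor arrays were above the controls, with changes of 0.80 ± 0.13 (adjusted p = 0.000118) and 0.45 ± 0.13 (0.0118) over A1. The KIF11 call for A3 ended without A3 replicate 1 (0.36, 0.0665) and with the ACTB ratio in the fit (0.0909). KIF15 had 815.9, 764.5 and 873.2 under A2, above 504.3, 538.2 and 422.2 under A1 and 376.2, 469.7 and 436 in U. Under A3 it had 502.9, 681.6 and 526.4, which overlapped A1 but lay above U. The rise over A1 was 0.74 ± 0.14 with A2 (0.000427), and the change of 0.21 ± 0.14 with A3 did not pass (0.255). Against U the A3 change of 0.40 ± 0.14 passed (0.0296), but not without replicate 1 or 3 of U or replicate 2 of A3 (0.0511 to 0.153), without the trend or with the ACTB ratio in the fit (0.0563 to 0.0874).

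KIF4A had 800.3, 747.2 and 872.1 under A2, against 504.4, 406.7 and 412.6 under A1 and 388.6, 491.8 and 363.9 in U. Under A3 it had 488.9, 548.4 and 569.1, which overlapped both controls. It rose with A2 by 0.86 ± 0.13 (adjusted p = 7.43e-05), while A3 gave 0.28 ± 0.13 over A1 (0.119) and 0.37 ± 0.13 over U (0.0376). The last call ended without replicate 1 or 3 of U or replicate 2 or 3 of A3 (0.0878 to 0.15). It also ended with the compared arrays alone, without the trend, with a replicate block and with the ACTB ratio in the fit (0.0502 to 0.0655).

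Among the motors that shorten microtubules, KIF2C had 2067.4, 1925.9 and 2125 under A2 and 1855.2, 1517 and 2176.5 under A3, all above the 1339.5, 1111.1 and 1238.9 of A1 and the 1333.6, 1173.3 and 1247.3 of U. The main probe set rose by 0.73 ± 0.13 (adjusted p = 0.000249) and 0.57 ± 0.13 (0.00194) over A1, and the other gave 1.06 ± 0.13 and 0.95 ± 0.13. KIF18B had 1115.1, 1290.7 and 1246.1 under A2 and 1172.2, 1223.5 and 1120.4 under A3. Under A1 it had 856.5, 1141.9 and 763.7, so that its second array lay within the range of both inhibitors, and U had 752.1, 752.6 and 724.4. The rises of 0.42 ± 0.13 (0.0183) and 0.36 ± 0.13 (0.0375) over A1 were the weakest calls, lost with the ACTB ratio in the fit (0.118 and 0.158). Without replicate 1 or 3 of A1 or replicate 2 or 3 of A2 the first ended (0.0557 to 0.109), and without replicate 1 or 3 of A1 or any A3 array the second did (0.0558 to 0.193), as it did with the compared arrays alone or without the trend (0.0701 to 0.158 with the ACTB fit included).

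KIF18A, whose mean change with the hairpin did not pass the test, rose with both inhibitors. It had 215.2, 182.7 and 230 under A2 and 165.9, 182.1 and 161 under A3, while U had 75.1, 95.9 and 95.7. Its A1 arrays were scattered at 165.2, 53.3 and 104.7, a coefficient of variation of 52.0%, and the highest of them overlapped A3 but not A2. The change over A1 was 1.00 ± 0.25 for A2 (adjusted p = 0.00456) and 0.72 ± 0.25 for A3 (0.0336), and over U it was 1.14 ± 0.25 (0.00162) and 0.86 ± 0.25 (0.0124). Without replicate 2 of A1 the A2 change was 0.62 and still called. Without that array the A3 change was 0.34 (0.181), and it also lost its call without replicate 3 of A1 or any A3 array (0.0576 to 0.181 over these 5). Over U the A3 change missed the threshold without replicate 1 of U (0.76, 0.0501). With the ACTB ratio in the fit neither change over A1 was called (0.91 with adjusted p = 0.129 for A2, and 0.293 for A3), and the A3 call also ended with no filter, with the compared arrays alone and without the trend (0.0621 to 0.293 over these 4).

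Of the remaining cytokinesis motors, KIF14 had 629, 669.8 and 678.9 under A2, above 462.3, 492.8 and 428.2 under A1 and 396.4, 440.4 and 406.7 in U, and rose by 0.51 ± 0.10 over A1 (adjusted p = 0.00114). Under A3 it had 509.5, 470.3 and 463, a change of 0.06 ± 0.10 (0.713; 95% interval -0.16 to 0.28). KIF23 had 115.7, 122.6 and 120.4 under A2 and 88.9, 89.7 and 111.6 under A3, against 108.1, 54 and 92.2 under A1 and 94.8, 67.2 and 54.9 in U. Its A2 arrays were the highest, but the change over A1 of 0.49 ± 0.22 did not pass (0.0917) except without replicate 1 of A1 (0.67, 0.0364). Over U it rose by 0.68 ± 0.22 (0.0213), a call that ended without replicate 2 or 3 of U or of A2 (0.0543 to 0.0994), after quantile normalization and with the ACTB ratio in the fit (0.0532 and 0.0949). KIF20B had 462.5, 446.2 and 308.6 under A2, 358.6, 225.5 and 417.8 under A3, 371.9, 221.8 and 327.4 under A1 and 197.7, 365.3 and 260.7 in U. All 4 groups overlapped, and its changes over A1 of 0.40 ± 0.24 (0.231) and 0.10 ± 0.24 (0.79) did not pass. Over U its A2 change of 0.57 ± 0.24 (0.0824) passed without replicate 2 of U (0.79) or replicate 3 of A2 (0.75), with the compared arrays alone and with the ACTB ratio in the fit (0.0246 to 0.0465).

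**Figure D4:**
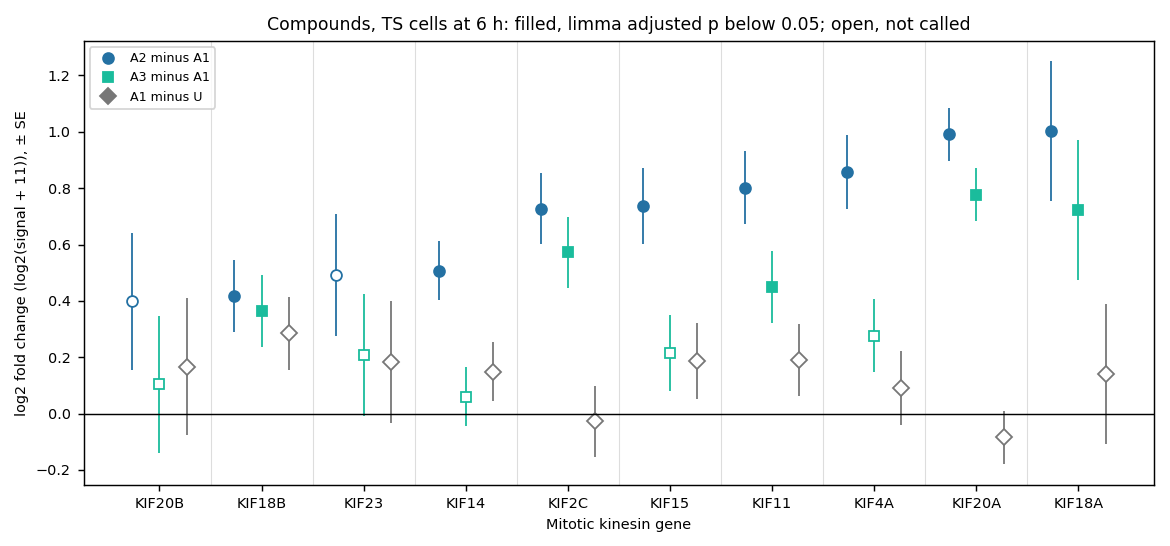
Log2 fold change (± SE) of each kinesin in TS cells after 6 h of A2 over A1, A3 over A1, and A1 over U; filled symbols passed limma's adjusted p of 0.05 and open ones did not. There are 8 filled A2 symbols and 5 filled A3 symbols, each A2 change lies above the A3 change of the same gene, and all A1 over U symbols are open.

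A2 and A3 were set against each other directly at the same dose and time. All 10 kinesins were lower under A3, by -0.58 ± 0.13 for KIF4A to -0.05 ± 0.13 for KIF18B, but 0 of 10 were called (0.151% of all genes were). In limma 5 had an unadjusted p under 0.05: KIF4A, KIF14, KIF15, KIF11 and KIF20A. The 95% interval of the KIF4A difference was -0.86 to -0.31 and that of KIF15 (-0.52) was -0.81 to -0.24, with adjusted p = 0.12 and 0.233. In 6 kinesins the A3 arrays lay below A2 without overlap, beside 7.89% of all genes, and the median was -0.29 beside 0.01. The data therefore do not show that both compounds acted alike on these genes, nor that any 1 gene differed. Between A1 and U 0 of 10 were called, as 0.0349% of all genes were; KIF18B (0.28 ± 0.13) had the 1 unadjusted p under 0.05. The intervals of the 10 changes between A1 and U ran from -0.39 to 0.68 at the extremes.

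Set side by side, the experiments moved the same motors in opposite directions. On the mean of the 3 hairpin settings 9 of 10 kinesins were lower (21.7% of all genes were), from KIF15 at -1.65 ± 0.07 and KIF2C at -1.46 ± 0.05 to KIF23 at -0.78 ± 0.14, with a median of -1.17 beside 0.07 for all genes. KIF20B (-1.43 ± 0.15), KIF18B (-1.35 ± 0.08), KIF4A (-1.25 ± 0.06), KIF14 (-1.08 ± 0.09), KIF11 (-0.94 ± 0.06) and KIF20A (-0.94 ± 0.08) lay between, and KIF18A had -0.06 ± 0.10 (adjusted p = 0.669; 95% interval -0.27 to 0.15). Of the 10, 7 were both lower on this mean and higher with A2 over A1, as were 3.26% of the 8485 genes tested in both experiments. The A2 changes over A1 ran from 0.40 ± 0.24 for KIF20B and 0.42 ± 0.13 for KIF18B to 0.99 ± 0.10 for KIF20A and 1.00 ± 0.25 for KIF18A, with no order within either pair beyond their errors. The hairpin arrays were taken at 72 or 84 h and the compound arrays at 6 h, with different controls. The hairpin mean also took in Su-DHL1 and sorted cells that carried the vectors, while the compound arrays were of TS cells alone. Time, the means of acting on ALK (hairpin or compound) and these other differences therefore cannot be told apart. ALK RNA changed by -0.32 ± 0.13 with A2 over A1, which did not pass (limma adjusted p = 0.0702), and the arrays do not measure kinase activity.

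**Figure D5:**
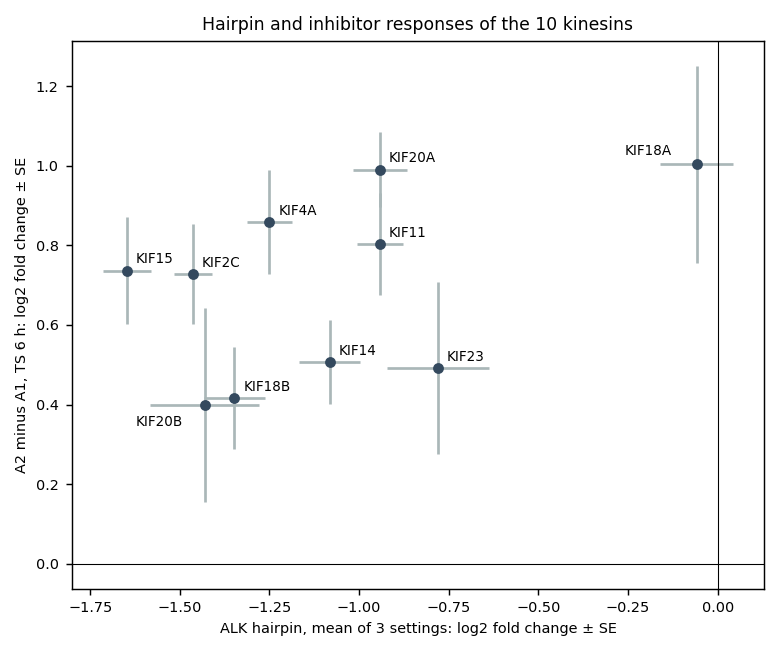
Log2 fold change (± SE) of each kinesin on the mean of the 3 hairpin settings (x axis) and for A2 over A1 in TS at 6 h (y axis). The 10 points lie at or left of 0 on the first axis and above 0 on the second, with KIF18A at -0.06 and 1.00 apart from the rest.

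The neighbouring genes of the pathway were read from lists chosen by function. Among 6 tested other kinesins of spindle, centriole or midbody, 4 fell on the mean of the hairpin settings and 1 rose. Of all genes, 21.7% were called lower on this mean and 29.1% higher. CENPE, which tethers chromosomes to microtubule ends, fell by 0.91 ± 0.10 on the log2 scale, KIFC1, the motor that pulls poles together, by 0.76 ± 0.08, the chromokinesin KIF22 by 0.59 ± 0.08 and KIF2A by 0.21 ± 0.08. KIF3B rose by 0.37 ± 0.08 and KIF13A had -0.02 ± 0.14. By setting, 3 of the 6 fell and 1 rose in TS at 84 h, 2 fell and 0 rose in TS at 72 h. In Su-DHL1 0 of the 6 fell and 0 rose. The shares of all genes called lower were 18.8%, 15.2% and 10.7% in these settings, and called higher 21.8%, 18.9% and 13.9%. CENPE had 31.5, 14.3 and 27.1 in TS cells induced for 84 h but 99.2, 104.3 and 92.6 in those induced for 72 h, with 108.7 to 157.3 in the uninduced TS arrays. Its difference between times of -1.95 ± 0.25 (adjusted p = 4.9e-05) was beyond that of any of the 10 kinesins. The CENPE signals of TS cells induced for 84 h lay below the 40th percentile of their arrays (42.2 to 43.0), among the dim probe sets, so the size of this difference is uncertain. With A2, 3 of 5 tested rose over A1, beside 19.1% of all genes. CENPE rose by 1.10 ± 0.14, KIFC1 by 1.03 ± 0.18 and KIF22 by 0.93 ± 0.12.

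Kinesins and light chains known for transport in cells that are not dividing gave other counts. Of 14 tested with limma, 0 fell (0 also at an unadjusted p under 0.05) and 8 rose on the mean of the hairpin settings. There 21.7% of all genes were called lower and 29.1% higher. The median of the 14 was 0.24. The largest were the light chain KLC1 (0.88 ± 0.07), KIF13B (0.78 ± 0.07), the endosome motor KIF16B (0.70 ± 0.12) and KIF3C (0.65 ± 0.12). With A2 over A1, where 14.3% of all genes were called lower and 19.1% higher, 2 fell and 2 rose (3 and 1 under quantile normalization). The largest were KIF21B (-2.96 ± 0.39) and KIF1B (0.78 ± 0.17), a motor of vesicles and mitochondria.

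Proteins that load or work beside the mitotic kinesins mostly fell with the hairpin. Of 18 tested, 15 fell and 2 rose on the mean of its settings, beside 21.7% and 29.1% of all genes. The median of the 18 was -1.25. AURKB (-1.71 ± 0.10), the kinase of the passenger complex, MKI67 (-1.66 ± 0.06), the chromosome coat that KIF15 binds, BIRC5 (-1.61 ± 0.09), also of the passenger complex, and ECT2 (-1.56 ± 0.11), which centralspindlin recruits for the contractile ring, fell most. KIFBP, a kinesin-binding protein that keeps some of these motors off microtubules, rose by 0.84 ± 0.08, and the plus-end protein MAPRE1 by 0.26 ± 0.05. INCENP did not pass (0.18 ± 0.18). With A2, 14 of 18 rose over A1 and 0 fell, beside 19.1% and 14.3% of all genes. NUSAP1 (1.22 ± 0.11) and DLGAP5 (1.11 ± 0.12), both spindle microtubule proteins, rose most.

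Regulators of late cell cycle genes were less uniform: 7 of 13 fell and 1 rose. On the mean of the hairpin settings 21.7% of all genes were called lower and 29.1% higher. FOXM1 fell by 1.63 ± 0.09 on the log2 scale, MYBL2 (B-MYB) by 0.82 ± 0.11, E2F1 by 0.67 ± 0.10 and TFDP1 by 0.65 ± 0.06, while the cyclin-dependent kinase inhibitor CDKN1A rose by 0.49 ± 0.06. FOXM1 had 33.8, 22.3 and 21.6 in TS cells induced for 84 h and 278.6, 231.9 and 214 in uninduced ones. The induced values lay below the 40th percentile of their arrays (42.2 to 43.0), so the size of this fall is uncertain. Taken by setting, 6 of the 13 regulators fell and 1 rose in TS at 84 h, and the same numbers did at 72 h. In Su-DHL1 3 fell and 0 rose. Of all genes 18.8%, 15.2% and 10.7% were called lower in these settings, and 21.8%, 18.9% and 13.9% higher. With A2, 4 of 13 rose over A1, beside 19.1% of all genes. LIN37 of the MuvB complex rose by 0.93 ± 0.20 and FOXM1 by 0.90 ± 0.13. FOXM1 had 699.5, 612.2 and 672.5 under A2 against 397.8, 286.8 and 373.5 under A1.

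The track and the motor that walks towards minus ends were read for contrast. Of 13 tubulins 8 fell and 3 rose on the mean of the hairpin settings, beside 21.7% and 29.1% of all genes. TUBA1A rose by 2.18 ± 0.09 and TUBB2A by 1.43 ± 0.09, while TUBB6 and TUBG1 fell by 0.64 ± 0.05 and 0.44 ± 0.06. These members are close in sequence and may share probes, so their separate values are uncertain. TUBA1A and TUBB2A also rose with A2 over A1, by 1.11 ± 0.13 and 1.12 ± 0.17, among 6 of 13 that rose and 1 that fell. In that comparison 19.1% of all genes were called higher and 14.3% lower. Of 18 dynein and dynactin genes tested with limma 0 fell (0 also at an unadjusted p under 0.05) and 11 rose on the mean of the hairpin settings. There 21.7% of all genes were called lower and 29.1% higher. Under quantile normalization 10 rose, without DYNC1LI1. The rise was led by DYNC1I2 (0.79 ± 0.08), DYNC1LI2 (0.75 ± 0.07), ACTR10 (0.65 ± 0.05) and the heavy chain DYNC1H1 (0.47 ± 0.07). By setting, 8 rose in TS at 84 h, 9 in TS at 72 h and 3 in Su-DHL1, and 0 fell in each. The shares of all genes called higher were 21.8%, 18.9% and 13.9%. With A2 over A1 7 of these 18 rose and 1 fell, beside the same 19.1% and 14.3% of all genes. DYNC1H1 (1.03 ± 0.14) and DYNLT1 (-0.84 ± 0.12) were at the extremes.

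The genes whose pattern lay closest to the mean of the 10 kinesins were found by the root mean square difference of 11 group means, centred within each experiment, over 8485 genes tested in both. The nearest were the checkpoint kinase BUB1 (0.0774 log2 units), the cyclins CCNF (0.0886) and CCNB2 (0.0900), the mitotic kinase PLK1 (0.103), the kinetochore protein CENPF (0.110), the replication origin protein ORC1 (0.110), and the kinases AURKA (0.115) and TTK (0.115). The median over all genes was 0.595. Among the kinesins KIF4A lay closest to their own mean (0.0994) and KIF18A furthest (0.483). The single nearest gene was RACGAP1 for KIF11, NCAPH for KIF14, MKI67 for KIF15, CDK7 for KIF18A, FANCI for KIF18B, STIL for KIF20A, PLK4 for KIF23, PTTG1 for KIF2C and CENPF for KIF4A. For KIF20B it was PTTG3P, a near copy of PTTG1, whose probe set may also read PTTG1. In no case was the nearest gene another of the 10.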

How the data were processed

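Each deposited value is the intensity of a probe set, unlogged, which the authors obtained with MAS5 according to the submitters' processing notes (no version or setting is given in the sources used here). Of 22283 probe sets, 68 controls were left out. The platform annotation gave 1 symbol to 19065 probe sets, several to 1043 and none to 2107; 19053 matched the GRCh38.p14 gene table, and no kinesin symbol changed. Signals were used as scaled, as log2(signal + 11), the pseudocount being the 20th percentile of all values (10.8) rounded. Probe sets at or above the 40th percentile of their array on 3 arrays were kept, with the brightest for each gene. limma 3.58.1 (R 4.3.3; lmFit, eBayes with trend; two-sided; no block) was fitted to the 21 hairpin arrays (9101 genes) and to the 12 compound arrays (8594 genes) separately, with Benjamini-Hochberg adjustment over all genes; all 10 kinesins were tested in both. The number of arrays limits the precision. The scripts were tested on simulated data. Same-numbered replicates did not deviate together. Alternatives were the pseudocount, the filter, quantile normalization, the mean of probe sets, compared arrays alone, no trend, a replicate block, the ACTB ratio as a covariate and leaving out each array. The kinesins and the lists were chosen with earlier results of these data known. Named genes were all 10 kinesins, ALK, and from each list the 4 with the largest change on the mean of the hairpin settings and the 2 with the largest for A2 over A1 (all where 8 or fewer were tested); KIFBP, MAPRE1, INCENP and CDKN1A were named after their values were seen. Figures were drawn with matplotlib 3.10.9.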

Additional observations from a re-analysis of the deposited data

Results flagged for a closer look

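The results here differed between settings by a test of the difference itself. KIF15 and KIF4A fell less in Su-DHL1 than in TS at 72 h, by 0.96 ± 0.16 (limma adjusted p = 0.000935) and 0.58 ± 0.15 (0.0361) on the log2 scale. The KIF4A call ended without any 1 of 10 of the 12 arrays (adjusted p up to 0.112), and with the ACTB ratio in the fit neither KIF15 (0.0822) nor KIF4A (0.337) was called. The line and the ALK signal left under the hairpin cannot be told apart in this comparison. KIF11 (-1.30 ± 0.16, 3.36e-05), KIF18B (-1.10 ± 0.21, 0.00387), KIF15 (-1.09 ± 0.16, 0.000368) and KIF2C (-1.05 ± 0.13, 3.36e-05) fell further at 84 h than at 72 h in TS. KIF15 appears in both sets: its uninduced mean was also lower in Su-DHL1, at 247.6 ± 18.1 (SD, n = 3) beside 420.0 ± 21.7 in TS at 72 h. The same uninduced arrays enter the test of the difference between the lines.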

How the results depend on the processing

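Under the alternatives run no kinesin change that was called turned its sign. The count of kinesins called in the difference between Su-DHL1 and TS (2) was 5 with the compared arrays alone, 1 with a replicate block, 1 with the ACTB ratio as a covariate, and 1 to 4 without single arrays. For A3 over A1 (5) it was 3 with the compared arrays alone, 3 without the trend, 2 with the ACTB ratio, and 2 to 4 without single arrays. For A3 over U (7) it was 4 to 7 and for the difference between 84 h and 72 h (4) it was 4 to 7 without single arrays. The other counts of called kinesins stayed within 1.5 times. The replicate numbers did not pair the samples (correlations of same-numbered deviations from -0.21 to 0.11); a replicate block ended 2 kinesin calls, KIF4A in Su-DHL1 against TS (0.0741) and for A3 over U (0.0502). No paired analysis was possible for the uninduced lines because the block was set within each line and time, so it holds no term that both lines share; a pairing of numbers across lines was not run. Under quantile normalization no called gene of the lists turned its sign on the mean of the hairpin settings or for A2 over A1. The ACTB ratio moves with the groups, and with it fewer genes of all kinds were called: 1900 for 3699 in TS at 84 h, 2400 for 3942 against ALK-A5M, 1426 for 3108 in TS at 72 h, 2441 for 4622 on the mean of the hairpin settings, 91 for 263 in the difference of lines, 1070 for 1928 between uninduced lines, 1354 for 2871 for A2 over A1 and 1452 for 2808 for A3 over A1. With the compared arrays alone 149 in place of 636 genes were called for ALK-A5M and 425 in place of 263 for the difference of lines; without the trend 76 in place of 116 were called for the difference of times. Between A1 and U (3) the count over all genes was 0 to 10, and between A3 and A2 (13) it was 0 to 8 under those that moved it, leaving out arrays included. The cause of these shifts was not tested.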

Other observations

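KIF21B, a kinesin from the list of transport motors, was the gene of that list with the largest change in the compound experiment. It had signals of 38.5, 57.2 and 16.4 under A2 and 13.2, 72.9 and 10.1 under A3, against 297.3, 364.8 and 366.9 under A1 and 293.9, 258.1 and 307.3 in U. Every inhibitor array lay below every control array. The values 16.4 under A2 and 13.2 and 10.1 under A3 lay below the 40th percentile of their arrays (37.2, 36.1 and 38.1), so the size of the KIF21B fall is uncertain. In the hairpin experiment the KIF21B signal lay between 179.2 and 392.2 on all 21 arrays, and the mean of the 3 hairpin settings gave 0.19 ± 0.13 on the log2 scale (limma adjusted p = 0.241). TUBA1A, a tubulin with close relatives on the array, rose in both experiments. It had 2310.7, 1849.4 and 1561.3 in TS cells induced for 84 h and 332.3, 267.7 and 335.9 in uninduced ones, and 1355.6, 1259.3 and 1580.2 under A2 against 662.7, 597 and 665 under A1.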
